A study of Mus musculus with 6 samples.

Results

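Genes of the translation machinery were examined in mouse ETX-embryos, in which embryonic, trophoblast and extraembryonic endoderm stem cells join in culture into a structure resembling an embryo. The genes were taken by name: every entry called Eif1 to Eif6, Eef1 or Eef2 with any suffix, and every aminoacyl-tRNA synthetase symbol, leaving out the Eif2ak kinases and the Eif4ebp genes. This gave 91 of the 12826 genes in the deposited table. They were 45 initiation factor genes, 7 elongation factor genes and 36 synthetase genes (19 cytosolic and 17 mitochondrial, split by symbol, so that an enzyme of both compartments such as Kars counts as cytosolic). The remaining 3, Eif2c1, Eif2c2 and Eif2c3, are older symbols of Argonaute genes, which act in RNA silencing, and are described apart. All 91 had a mean of at least 1 FPKM, the filter used for the tests.

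The libraries came from 3 individual ETX-embryos, A, B and C, made with a mouse line in which GFP reports T/Brachyury, with no treatment. Each gave an anterior piece (GFP-negative) and a posterior piece (GFP-positive) of its embryonic stem cell part, after the trophoblast part had been cut away. This makes 3 anterior and 3 posterior libraries, 1 for each piece. Genotype beyond the reporter, the promoter fragment that drives it, the number of clones and the time in culture are not stated in the labels. The labels rest on the T reporter, which chose the pieces. Values given in threes follow the order of embryos A, B and C, anterior pieces first, so that "x, y and z against u, v and w" sets the anterior libraries beside the posterior ones. T itself was at 0, 0 and 5.44 against 2.59, 4.05 and 0 in log2(FPKM + 1), so it ran against the labels in embryo C. The wider primitive streak list did not: its genes summed to 0.127, 7.38 and 45 FPKM against 350, 283 and 293 FPKM, and of 10 tested, T included, 9 were higher in the posterior piece of embryo C.

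Protein synthesis starts when initiation factors bring the small ribosomal subunit and the initiator tRNA to the start codon of an mRNA. eIF2 carries the initiator tRNA, eIF2B recharges eIF2 with GTP, eIF3 holds the initiation complex together, and the eIF4 group binds the cap and unwinds the leader. eEF1 and eEF2 then deliver aminoacyl-tRNAs and move the ribosome along, and the synthetases join each amino acid to its tRNA, with mostly separate enzymes for the cytosol and for mitochondria. Fast-growing cells such as those of the early epiblast use this machinery heavily.

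The libraries differed in ways that run with the domain. Genes listed at 0 made up 13.6% to 27.2% of the table in the anterior and 5.34% to 20.0% in the posterior libraries. Estimated depth relative to anterior A, the shallowest, was 1.41 and 1.43 in anterior B and C and 1.56 to 2.82 in the posterior libraries. The estimates of posterior A and B, the highest, may be too high by 1 doubling. Pairs that disagreed by 1 doubling were anterior B with posterior A, anterior B with posterior B, and posterior A with posterior C. The 10914 genes tested had a median difference, posterior minus anterior, of 0.43 in log2(FPKM + 1). Library-wide differences such as depth therefore cannot be told apart from domain, and member differences are read beside that value. Visceral endoderm markers, of an extraembryonic layer, summed to 793, 1020 and 125 FPKM against 150, 294 and 174 FPKM, with 12, 12 and 4 of 13 above 0 against 11, 13 and 9. In anterior C the defining markers Rbp4 and Ttr were at 0, while Lrp2, an uptake receptor, was at 6.75 and Foxa2 at 4.22 in log2(FPKM + 1). Rbp4 was at 0 in posterior C as well, where Ttr was at 5.02. Of 11 tested, 6 were higher in the posterior domain on average, and Lrp2 had an unadjusted p under 0.05 on the anterior side, at 6.17, 6.51 and 6.75 against 3.06, 3.33 and 4.91 (limma adjusted p = 0.520). XEN and parietal endoderm markers summed to 1120, 1690 and 350 FPKM against 437, 339 and 777 FPKM, so embryo C ran opposite to A and B. Of 11 tested, 4 (36.4%, beside 64.9% of all genes) were higher in the posterior domain on average. Trophoblast markers summed to 345 to 536 FPKM in the anterior and 363 to 739 FPKM in the posterior libraries. The trophoblast list went both ways, with 5 of 10 tested higher in each domain on average: Tfap2c and Eomes (also a streak gene) were higher in every posterior library than in any anterior one, Gata3 and Hand1 were higher in the anterior piece of each embryo, and Elf5 was at 0 in the 3 anterior libraries and in posterior C. Epiblast markers summed to 72.5, 153 and 460 FPKM against 649, 344 and 484 FPKM. All 10 tested (100%, beside 64.9% of all genes) were higher in the posterior domain on average. Their median difference was 1.77, beside 0.43 over all genes. The part of these cell types in the differences below was not tested. In bulk pieces, fewer cells of a type and less RNA per cell cannot be told apart.

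Promoter windows were read for the synthetases because many cytosolic synthetase genes are known targets of ATF4, the transcription factor of the amino acid response. RefSeq windows of GRCm38.p6, from 250 bases before to 50 after each annotated start, were at hand for 67 of the 91 genes. The composite element of ATF4 and C/EBP factors was searched as TGATGNAA on both strands. It lay in windows of 4 of 11 cytosolic synthetase genes (36.4%), in 0 of 14 mitochondrial ones, and in 1219 of all 27025 genes with a window (4.51%); per window the shares were 36.4% of 11, 0% of 15 and 3.97% of 32851. The 4 matches in synthetase genes, and those of Eef2k and Eif2s3x, are shown as the gene's strand reads them, with the 8 matching bases in capitals.
Yars, chr4:129189895-129189924, plus strand: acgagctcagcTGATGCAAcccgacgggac
Gars, chr6:55037960-55037989, plus strand: tggctgcgctaTTTCATCAtgcaccgggcg
Iars, chr13:49682126-49682155, plus strand: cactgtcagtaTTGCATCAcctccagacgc
Tars, chr15:11399655-11399684, minus strand: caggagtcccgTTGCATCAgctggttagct
Eef2k, chr7:120851094-120851123, plus strand: ctttctgcttgTTTCATCAagctcagcttg
Eif2s3x, chrX:94212729-94212758, minus strand: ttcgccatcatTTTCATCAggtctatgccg
In the 4 synthetase genes the match began 30 bases before the annotated start (Gars), 15 before it (Tars), 3 after it (Yars) and 7 after it (Iars). A match is a description of the letters and not a binding site.

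Levels followed role. FPKM is scaled for transcript length, so levels can be set side by side between genes. The median over members of the mean FPKM was 203 for elongation factor genes, 105 for eIF3, 72.0 for eIF4, 41.8 for cytosolic synthetases, 40.0 for eIF2, 22.8 for eIF2B and 7.0 for mitochondrial synthetases. Over all genes tested it was 10.7 FPKM. The highest member was Eef1a1, which carries aminoacyl-tRNA to the ribosome, at 1190, 2950 and 2020 FPKM against 2240, 2080 and 2830 FPKM. The highest initiation gene was Eif4a1, the cap-complex helicase (mean 650 FPKM), and the highest synthetase was Kars, for lysine (130 FPKM). The lowest in each group were Eef2k, the kinase that inhibits eEF2 (2.18 FPKM), Eif4e3, a cap-binding paralog (3.10 FPKM), and Pars2, the mitochondrial proline enzyme (1.29 FPKM). The spread over the 6 libraries was a median SD of 0.48 in log2(FPKM + 1) for the eEF1 subunits and eEF2, 0.68 for eIF3, 0.93 for cytosolic and 1.18 for mitochondrial synthetases, and 1.17 for all genes tested. For all 7 elongation members, with Eef1e1 (SD 2.14) and Eef2k (SD 1.33), the median SD was 0.66, near that of eIF3. The median SD was 1.46 for eIF2B, above the mitochondrial synthetases. Of these, Lars2 (120.7 FPKM) stood far above the rest, whose highest was Tars2 at 19.4 FPKM.

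**Figure D1:**
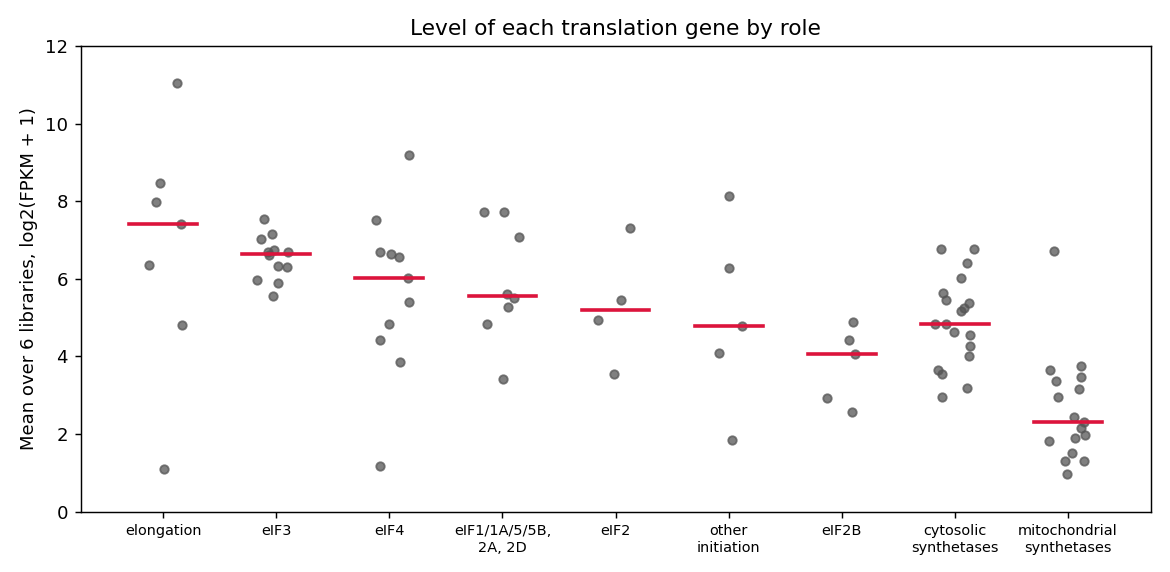
Mean level over the 6 libraries in log2(FPKM + 1) on the vertical axis for 88 members (the 3 Argonaute entries are left out), 1 point per gene, by role on the horizontal axis. Red lines are medians, which run from 7.41 for elongation factors to 2.31 for mitochondrial synthetases.

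The comparison of domains asked which members differ between the posterior and the anterior piece of the same embryo. No member passed the adjusted threshold with limma (adjusted p from 0.520 to 0.996), nor did any gene in the table (percent called 0). At an unadjusted p under 0.05 there were 8 members higher in the posterior domain, or 8.79% of 91, where 7.24% of all genes tested were, and 0 members higher in the anterior domain, where 0.788% of genes were. The 8 were Mars2, Eif2b1, Eif1ax, Eif2b3, Eif5a, Eif4a3, Eif2b2 and Kars. On average 66 of 91 (72.5%) were higher in the posterior domain, beside 64.9% of all genes, but with each library centred on its median the split was 44 of 91 (48.4%) beside 47.9%. The members' median difference of 0.46 was close to the 0.43 of all genes. Without embryo C, where T ran against the labels, 66 were higher in the posterior domain and 8 had an unadjusted p under 0.05. They were 55 and 4 without embryo A, 69 and 3 without embryo B, and 54 and 8 without anterior A and with no block for the embryo.

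**Figure D2:**
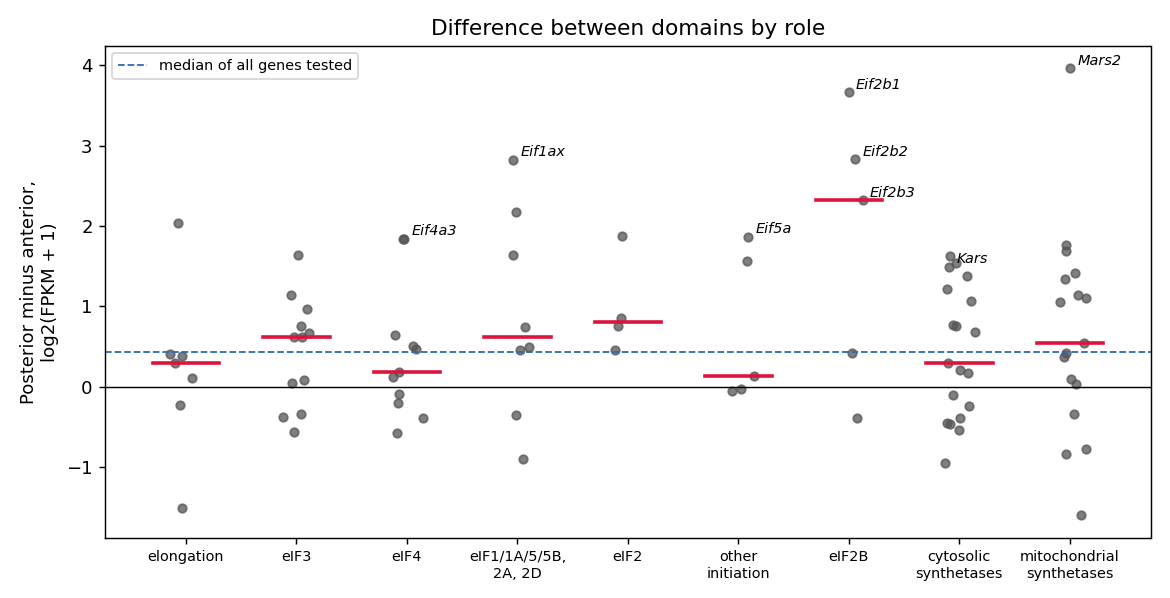
Posterior minus anterior difference in log2(FPKM + 1) on the vertical axis for 88 members, 1 point per gene, by role. Red lines are group medians, the dashed line is the median of all genes tested (0.43), and the 8 genes with an unadjusted p under 0.05 are named. The eIF2B median (2.32) lies above that of every other role plotted, and with libraries centred on their median the medians of elongation factors and synthetases fall below 0.

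Embryo by embryo, the members leaned to the posterior piece as the whole table did, close to its share in B and above it in A and C. The counts in this paragraph are of uncentred values and were not repeated with libraries centred, where the average split was 48.4% beside 47.9%. The members' median lay 1.95, 1.76 and 2.53 above the library median in log2(FPKM + 1) against 1.76, 2.05 and 2.16, so relative to its library it fell in embryos A and C. In embryo A 71 of 91 (78.0%) were higher in the posterior piece beside 67.8% of all genes, in B 48 (52.7%) beside 50.8%, and in C 60 (65.9%) beside 53.6%. In all 3 embryos alike, 29 members (31.9%) were higher in the posterior piece, where 21.5% of all genes were, and only Eif5b, the factor that joins the ribosomal subunits, was higher in the anterior piece, where 8.25% of genes were. The 3 posterior libraries all lay above the 3 anterior ones for 17 members (18.7%), where 12.3% of genes did so. The reverse held for 0 members, where 3.77% of genes did so. Those 17 included Eif2s1, Eif4e, Gars, Kars and Lars2, whose lowest level in any library was 4.84 in log2(FPKM + 1) or more.

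Of the initiation factor genes, 33 of 45 (73.3%, beside 64.9% of all genes) were higher in the posterior domain on average. Higher there at an unadjusted p under 0.05 were 6 of the 45 (13.3%, beside 7.24% of all genes). The median difference of the 45 was 0.51, beside 0.43 over all genes, and 0.02 with libraries centred on their median. In eIF2B, 3 of 5 genes (60%) had an unadjusted p under 0.05, beside 7.24% of all genes, and the median differences were 2.0, -0.39 and 3.0 in embryos A, B and C. This is the exchange factor that recharges eIF2 with GTP and whose activity the integrated stress response blocks. Eif2b1, the alpha subunit (chromosome 5, 124570213 to 124579131), was at 0, 3.30 and 0 against 4.81, 5.47 and 4.03 in log2(FPKM + 1). Its posterior libraries all lay above its anterior ones, with a difference of 3.67 ± 0.998 (SE, unadjusted p = 0.00472, limma adjusted p = 0.520; 3.49 ± 1.17 without embryo C). Eif2b2, the beta subunit (chromosome 12, 85219481 to 85226628), was listed at 0 in the same 2 libraries, at 0, 3.44 and 0 against 3.83, 3.05 and 5.05 in log2(FPKM + 1). There embryo B went the other way, and the difference was 2.83 ± 1.22 (limma adjusted p = 0.617), or 1.72 ± 1.44 without embryo C and 4.44 ± 1.41 without embryo B. Eif2b3, the gamma subunit (chromosome 4, 117019402 to 117087306), was at 3.01, 3.85 and 1.87 against 5.01, 5.82 and 4.86 in log2(FPKM + 1), with no overlap between domains and a difference of 2.32 ± 0.84 (limma adjusted p = 0.573). Over the 12 alternatives the unadjusted p was under 0.05 in 11 for Eif2b1, 8 for Eif2b3 and 5 for Eif2b2. Eif2b4 and Eif2b5, the delta subunit and the catalytic epsilon subunit, did not share the pattern. Eif2b4 was at 5.38, 4.74 and 3.71 against 4.95, 3.42 and 4.31, and Eif2b5 at 3.61, 4.95 and 5.46 against 5.20, 4.51 and 5.55, in log2(FPKM + 1). The 5 subunits therefore spanned 5.38 and 5.46 in log2(FPKM + 1) within anterior A and C, against 1.64 in anterior B and 1.37 to 2.77 in the posterior libraries. An exact 0 in a table without counts can be a failed estimate, and 8, 4 and 6 of the 91 members were listed at 0 in the anterior libraries, against 0, 0 and 3.

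**Figure D3:**
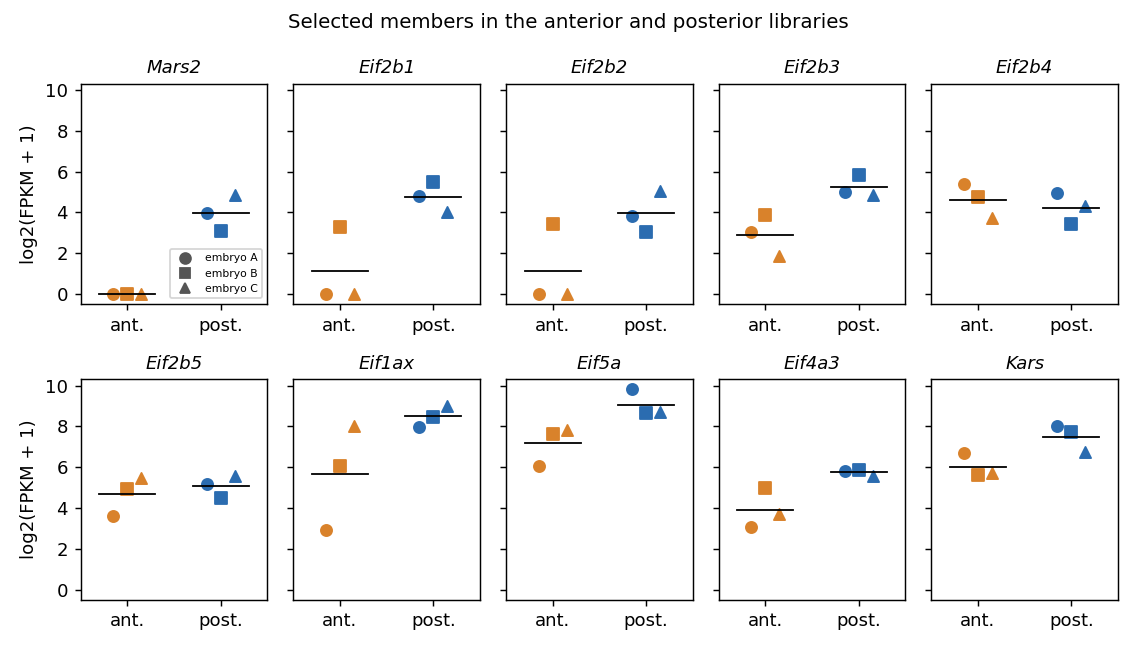
Level in log2(FPKM + 1) of the 5 eIF2B subunit genes and 5 other members, 1 point per library, for the anterior (ant., orange) and posterior (post., blue) pieces of embryo A (circles), embryo B (squares) and embryo C (triangles), with black lines at group means. Mars2 is at 0 in the 3 anterior libraries, Eif2b1 and Eif2b2 are at 0 in anterior A and C, and Eif1ax is lowest in anterior A (2.91).

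The factors that select the start codon were led by Eif1ax, the X-linked eIF1A gene (X chromosome, 159372178 to 159389928). Its level was 2.91, 6.07 and 8.03 against 7.98, 8.48 and 9.02 in log2(FPKM + 1), so anterior C overlapped the posterior range. The difference was 2.82 ± 0.82 (limma adjusted p = 0.523). Without anterior A and with no block for the embryo it was 1.44 ± 0.65 (limma unadjusted p = 0.0611), and without embryo A it was 1.70 ± 0.66. Its autosomal paralog Eif1a was at 7.82, 6.39 and 7.87 against 7.99, 7.73 and 8.60 in log2(FPKM + 1), and Eif1ax made up 2.8% of the FPKM of the pair in anterior A, 44.5% and 52.7% in anterior B and C and 49.8% to 62.8% in the posterior libraries. The 2 proteins are nearly the same, and the labels do not say how reads matching both genes were shared out. Eif1, which guards start codon choice, was at 7.29, 7.47 and 7.67 against 7.83, 7.64 and 8.42 in log2(FPKM + 1), and its paralog Eif1b at 6.53, 5.39 and 5.44 against 5.30, 4.97 and 6.05. Anterior A thus held the highest Eif1b and the lowest Eif1 level of the 6 libraries. Eif5b was at 5.60, 4.86 and 5.40 against 4.44, 3.79 and 4.92 in log2(FPKM + 1), a difference of -0.90 ± 0.76 (limma adjusted p = 0.743).

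The eIF2 subunit genes were measured in all libraries except for Eif2s3y in anterior C. Eif2s1, the alpha subunit that stress kinases phosphorylate, was at 4.84, 5.02 and 5.21 against 5.85, 6.29 and 5.48 in log2(FPKM + 1), with no overlap and a difference of 0.85 ± 0.72 (limma adjusted p = 0.745). The gamma subunit has an X-linked and a Y-linked gene. Eif2s3x (X chromosome, 94188707 to 94212862) was at 2.79, 5.40 and 5.47 against 5.06, 5.48 and 5.39 in log2(FPKM + 1). Eif2s3y (Y chromosome, 1010543 to 1028847) was at 6.27, 1.58 and 0 against 5.73, 5.44 and 2.33, and its unadjusted p of 0.0135 was the smallest of any member in the test among embryos (adjusted p = 0.996, limma F test). Its share of the FPKM of the pair was 92.8%, 4.6% and 0% against 61.7%, 49.3% and 9.0%. Both pieces of embryo A were high in Eif2s3y, both pieces of C were low, and the pieces of B differed. The labels do not say which of the joined stem cell lines carry a Y chromosome. At an unadjusted p under 0.05 the test among embryos held 2 members, Eif2s3y and Eif1ax (0.0379), or 2.20% of 91 where 2.77% of genes were called. The third member by p among embryos was Yars2, the mitochondrial tyrosine enzyme, at 1.18, 5.31 and 0.44 against 5.01, 4.79 and 2.18 in log2(FPKM + 1).

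**Figure D4:**
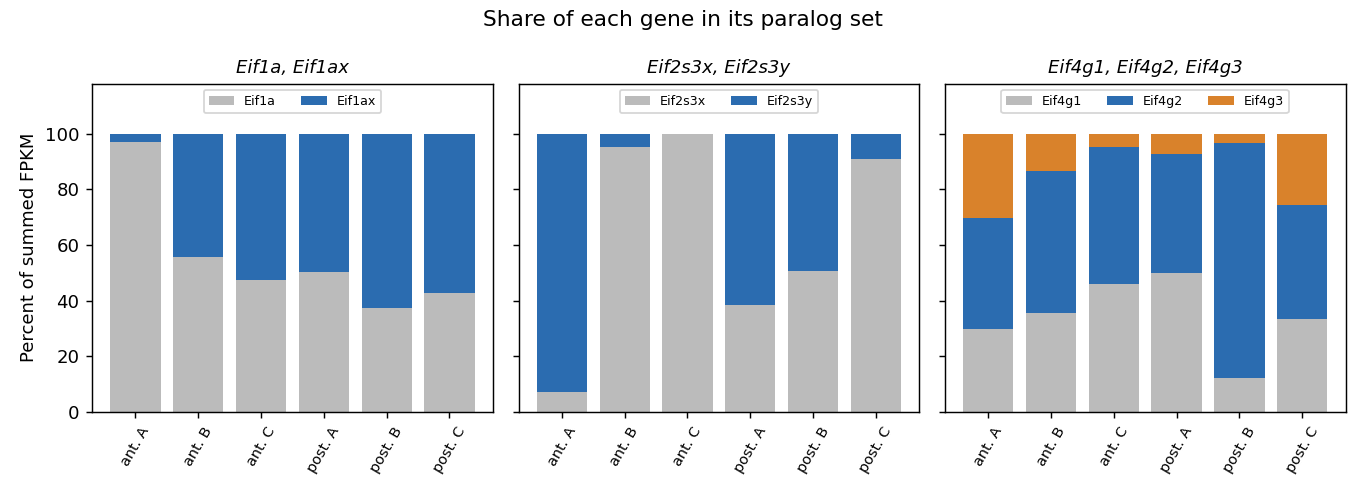
Percent of the summed FPKM of a paralog set held by each gene (stacked bars, vertical axis) in each library (horizontal axis, ant. for anterior and post. for posterior). Eif1ax holds 2.8% of its set in anterior A and 44.5% or more elsewhere, Eif2s3y is the larger part in both pieces of embryo A, and Eif4g2 holds 84.6% of its set in posterior B.

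All 12 eIF3 genes were above 0 in all 6 libraries. On average 9 of them (75%, beside 64.9% of all genes) were higher in the posterior domain, none at an unadjusted p under 0.05. Their median difference was 0.62, beside 0.43 over all genes. Eif3a, the scaffold subunit, was at 6.81, 6.21 and 6.99 against 6.16, 6.55 and 7.45 in log2(FPKM + 1), a difference of 0.05 ± 0.65 that was below 0 with libraries centred or quantile normalized. Of 11 eIF4 genes 7 (63.6%, beside 64.9% of all genes) were higher in the posterior domain on average (median 0.18). Eif4e, the cap-binding protein, was at 6.06, 6.34 and 6.68 against 7.09, 7.02 and 6.90 in log2(FPKM + 1), with no overlap and a difference of 0.65 ± 0.64 (limma adjusted p = 0.778). Its repressive paralog Eif4e2 was at 1.87, 4.71 and 3.93 against 5.05, 5.11 and 5.87, and Eif4e3 at 0.37, 0 and 4.02 against 1.59, 1.06 and 0, highest in anterior C.

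Among the helicase genes, Eif4a1 was at 8.27, 10.19 and 8.80 against 9.97, 8.70 and 9.13 in log2(FPKM + 1), and Eif4a2 at 7.76, 8.32 and 7.08 against 6.80, 7.40 and 7.79. Both overlapped between domains. Eif4a3 (chromosome 11, 119288363 to 119300089), the related helicase of the exon junction complex, did not overlap, at 3.05, 4.96 and 3.73 against 5.80, 5.89 and 5.58 in log2(FPKM + 1), a difference of 1.84 ± 0.79 (limma adjusted p = 0.617) whose unadjusted p was under 0.05 in 5 of 12 alternatives. Of the eIF4G scaffolds, Eif4g1 was at 5.29, 5.06 and 5.97 against 5.78, 4.61 and 5.67 in log2(FPKM + 1). Eif4g2, which serves cap-independent initiation, was at 5.70, 5.56 and 6.06 against 5.57, 7.35 and 5.94, so that posterior B alone stood out. Eif4g3 was at 5.31, 3.73 and 2.84 against 3.13, 2.83 and 5.30, high in anterior A and posterior C.

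Eif5a (chromosome 11, 69916714 to 69921958) helps ribosomes past stalling motifs, and its protein carries hypusine. Its level was 6.08, 7.65 and 7.85 against 9.82, 8.64 and 8.71 in log2(FPKM + 1). Every posterior library lay above every anterior one, and the difference was 1.87 ± 0.72 (unadjusted p = 0.0276, limma adjusted p = 0.603; 2.37 ± 0.91 without embryo C, 0.93 ± 0.61 without embryo A, and 1.31 ± 0.49 without anterior A and with no block). Dohh, the second enzyme of hypusine synthesis, had an unadjusted p under 0.05 in the same direction, at 4.43, 2.23 and 0.47 against 5.29, 4.71 and 5.51 in log2(FPKM + 1) (difference 2.80 ± 1.02, limma adjusted p = 0.573). Dhps, the first enzyme, was at 3.45, 4.62 and 2.60 against 4.71, 5.21 and 2.02, with embryo C going the other way. The paralog Eif5a2 held 0% to 7.8% of the FPKM of the pair and was highest in anterior C, at 4.36 in log2(FPKM + 1). Eif6, which keeps ribosomal subunits apart, was at 6.05, 5.80 and 6.78 against 6.77, 5.92 and 6.34 in log2(FPKM + 1).

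The elongation factor genes moved with the library more than with the domain. Eef1a1 was at 10.21, 11.53 and 10.98 against 11.13, 11.02 and 11.47 in log2(FPKM + 1), and Eef1b2, the exchange factor of eEF1A, at 7.69, 9.10 and 8.44 against 8.59, 8.23 and 8.74. Eef1d, another exchange subunit, was at 5.28, 6.95 and 6.22 against 6.45, 6.10 and 7.13, and Eef1g, the structural subunit, at 7.60, 8.54 and 8.11 against 7.89, 7.40 and 8.28. Eef2, the translocase, was at 5.35, 8.29 and 8.0 against 8.19, 7.06 and 7.55. Of these 5 genes 4 (80%) were lowest in anterior A, the shallowest library, beside 39.7% of all genes. In embryo B, where 50.8% of all genes were higher in the posterior piece, all 5 were lower there. Their differences ran from -0.23 ± 0.62 (Eef1g) to 0.41 ± 0.71 (Eef1d), with limma adjusted p of 0.884 to 0.972. The median over all 7 elongation members was 0.30, and it was -0.19 with libraries centred on their median and -0.29 without embryo A.

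**Figure D5:**
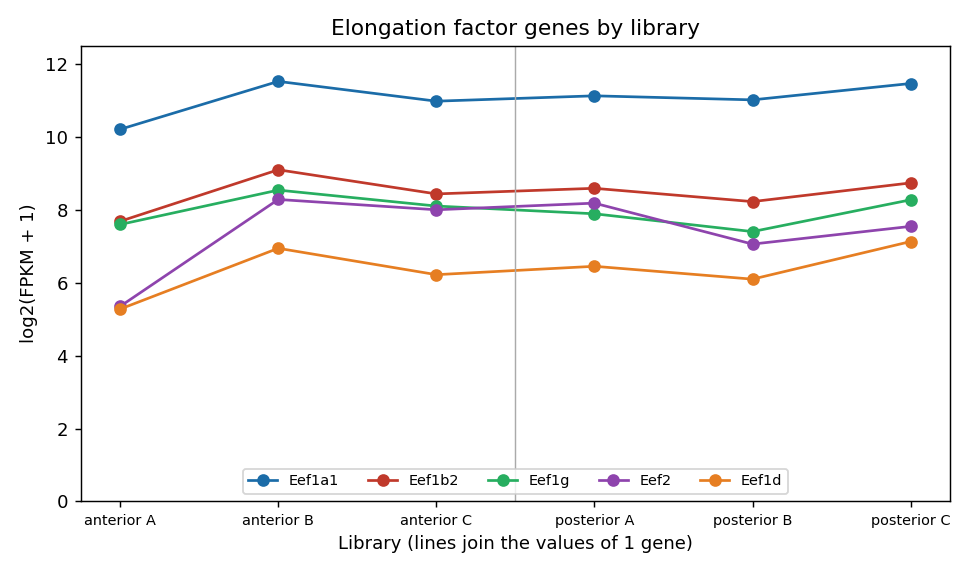
Log2(FPKM + 1) level (vertical axis) of 5 elongation factor genes by library (horizontal axis), 1 line per gene. Anterior A is lowest for all but Eef1g, and anterior B is highest for all but Eef1d.

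The other 2 entries named as elongation factors have other roles. Eef1e1, a scaffold of the multi-synthetase complex, was at 0.49 in anterior A and between 5.25 and 6.14 in the other 5 libraries in log2(FPKM + 1), so the difference of 2.04 ± 1.02 (limma adjusted p = 0.631) came mostly from embryo A (5.03, against 0.89 and 0.21 in B and C). Eef2k was at 3.12, 0 and 2.47 against 0.38, 0.26 and 0.40 in log2(FPKM + 1), a difference of -1.52 ± 0.94 (limma adjusted p = 0.667). It was lower in the posterior piece of embryos A and C and listed at 0 in anterior B.

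Of the synthetase genes, 25 of 36 (69.4%, beside 64.9% of all genes) were higher in the posterior domain on average. Higher there at an unadjusted p under 0.05 were 2 of the 36 (5.56%, beside 7.24% of all genes). The median difference was 0.48, beside 0.43 over all genes, but -0.01 with libraries centred on their median and -0.08 after quantile normalization. Of the cytosolic enzymes 12 of 19 (63.2%, median 0.29) were higher in the posterior domain, and of the mitochondrial ones 13 of 17 (76.5%, median 0.54). The member with the smallest unadjusted p of all 91 was Mars2, the mitochondrial methionine enzyme, whose transcript has 1 exon (chromosome 1, 55237177 to 55248470). Its values were 0, 0 and 0 against 14.9, 7.44 and 27.4 FPKM, and 1.03% of all genes tested had that pattern. The fitted difference in log2(FPKM + 1) was 3.96 ± 0.97 (unadjusted p = 0.00250, limma adjusted p = 0.520) and 3.53 ± 1.00 without embryo C. Over the 12 alternatives it stayed between 3.45 and 7.19, with an adjusted p from 0.313 to 0.903. Mars2 passed the filter on mean level only through the posterior libraries. With every anterior value at 0, the size of its difference depends on the offset added before the logarithm, and 7.19 is the value with 0.1 FPKM. Its cytosolic counterpart Mars was at 2.92, 3.76 and 4.03 against 3.99, 3.59 and 3.65 in log2(FPKM + 1). An exon of Mars overlaps Ddit3, and Smart-seq2 does not mark strand, so reads from the overlap cannot be told apart.

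Kars (chromosome 8, 111993443 to 112011323), which charges lysine in both compartments, was at 6.68, 5.64 and 5.72 against 8.04, 7.71 and 6.76 in log2(FPKM + 1). The domains did not overlap, but anterior A and posterior C nearly met, and the difference was 1.49 ± 0.65 (unadjusted p = 0.0452, limma adjusted p = 0.617). It had an unadjusted p under 0.05 in 6 of 12 alternatives, and with libraries centred on their median the difference was 1.00 ± 0.66 (limma unadjusted p = 0.159). Gars, for glycine, was at 6.83, 6.43 and 5.87 against 7.05, 6.87 and 7.54 in log2(FPKM + 1) (difference 0.77 ± 0.66, limma adjusted p = 0.749). Wars, for tryptophan, was at 4.31, 2.15 and 1.91 against 4.43, 2.93 and 5.61, higher in the posterior piece of each embryo, by 0.12, 0.78 and 3.70. Eprs, the joint glutamate and proline enzyme, was at 5.22, 6.90 and 7.34 against 5.93, 5.94 and 4.76, highest in anterior C and lowest in posterior C. The 4 synthetase genes with a TGATGNAA match had no common direction: besides Gars, the differences were 0.29 ± 0.86 for Yars, 0.20 ± 0.86 for Iars and -0.54 ± 0.81 for Tars in log2(FPKM + 1).

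Of the mitochondrial enzymes, Lars2, for leucine, was at 6.45, 5.26 and 6.45 against 7.02, 7.71 and 7.47 in log2(FPKM + 1), with no overlap (difference 1.35 ± 0.68, limma adjusted p = 0.637). Cars2, for cysteine, was at 3.81, 2.89 and 0 against 2.53, 1.64 and 0, at 0 in both pieces of embryo C. Pars2 was at 0, 1.35 and 0 against 1.68, 2.13 and 0.68, above its anterior partner in each embryo. Tars2, chosen after its values were seen, was at 5.87, 5.09 and 2.73 against 2.89, 2.97 and 3.02 in log2(FPKM + 1), and its difference of -1.60 ± 0.96 (limma adjusted p = 0.665) was the lowest of any member.

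Genes that govern or assist these factors were read from 5 further lists, and none of their members passed the adjusted threshold. In the list of the integrated stress response and ATF4 targets 23 of 26 genes were tested, 16 (69.6%, beside 64.9% of all genes) were higher in the posterior domain on average (median 0.49, beside 0.43), and Atf4 is not analysed here. At an unadjusted p under 0.05, 4 (17.4%, beside 7.24% of all genes) were higher in the posterior domain: Phgdh and Psat1 of serine synthesis, Asns, which makes asparagine, and Slc7a5, a transporter of large amino acids. Asns was at 3.52, 5.23 and 5.02 against 5.96, 6.49 and 6.44 in log2(FPKM + 1), and Phgdh at 0.46, 3.75 and 4.25 against 6.07, 4.87 and 6.42, both with no overlap. Ddit3, the stress factor CHOP, was on the other side, at 5.47, 5.55 and 5.83 against 1.83, 2.64 and 5.33 (difference -2.35 ± 0.90, limma adjusted p = 0.603). Of the regulators of eIF2 and eIF4E, 18 of 24 tested (75%, beside 64.9%) were higher in the posterior domain (median 0.64) and 1 (4.17%, beside 7.24%) had an unadjusted p under 0.05. That was Eif4ebp1, the repressor of eIF4E and itself an ATF4 target, at 4.37, 7.52 and 6.10 against 8.98, 7.71 and 8.41 in log2(FPKM + 1) (difference 2.37 ± 0.85, limma adjusted p = 0.572). Next was Mlst8, an mTOR complex subunit, at 0, 0.65 and 0.31 against 2.38, 1.46 and 1.78.

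In the list of termination, recycling and factor modification 8 of 13 tested genes (61.5%, beside 64.9%) were higher in the posterior domain (median 0.50), 2 (15.4%, beside 7.24%) at an unadjusted p under 0.05: Dohh, given above, and Denr, a recycling and reinitiation factor, at 4.05, 4.95 and 5.39 against 6.48, 7.12 and 6.05 in log2(FPKM + 1). Of the synthetase partners and selenocysteine genes it was 4 of 7 (57.1%, beside 64.9%, median 0.61), none at an unadjusted p under 0.05. They were led by Aimp2, a scaffold of the multi-synthetase complex, at 4.63, 5.04 and 2.20 against 5.96, 5.54 and 6.02. Second was Sepsecs, which makes selenocysteinyl-tRNA, at 0.80, 0.65 and 0.36 against 1.45, 2.87 and 1.02. Of the mitochondrial translation factors 12 of 14 (85.7%, beside 64.9%) were higher in the posterior domain, with 1 (7.14%, beside 7.24%) at an unadjusted p under 0.05. Their median was 0.78, and by embryo it was 1.95 in A, 0.09 in B and 0.04 in C. That was Qrsl1, a subunit of the enzyme that corrects glutamyl-tRNA in mitochondria, at 0.25, 0.18 and 5.74 against 4.23, 4.22 and 5.54, and the next was Ict1, a rescue factor of mitochondrial ribosomes, at 1.55, 5.30 and 6.03 against 6.60, 5.66 and 6.75.

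Of the Argonaute entries, Eif2c1 was at 0.95, 0.88 and 2.53 against 2.60, 2.69 and 3.77 in log2(FPKM + 1), a difference of 1.57 ± 0.96 (limma adjusted p = 0.666). Eif2c2 and Eif2c3 differed by 0.01 ± 0.92 and 0.04 ± 0.97. Of 88 members matched in GENCODE M21 (GRCm38), 36 have an exon overlapped by another annotated gene and 11 hold a small nucleolar RNA gene, among them Eif4a1, Eif4a2 and Eef2. The labels do not say whether reads in such stretches were counted for the member.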

How the data were processed

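Per the labels' protocols, Smart-seq2 reads were aligned to the mouse Ensembl genome and quantified by HTSeq-count. Their role beside TopHat2 2.0.4, Cufflinks 2.0.2 and the mm10 build, listed in the submitters' processing notes, is not stated. The authors deposited log2 values, read here as log2(FPKM + 1): above 3, undoing that scale left numbers with 6 significant digits or fewer for 99.1% to 99.5% of entries, and a natural logarithm for 2.27% at most. FPKM scales fragments for transcript length and library size; the sources used here name no further normalization. Absolute depth is unknown. Relative depth came from the steps of whole reads below 1 FPKM (tolerance 0.01 in log2), where 12 of 15 pairs of libraries fitted one solution within 0.05 and the others were off by 1 doubling. Each of those others held posterior A or posterior B, so the depth of these libraries beside the rest is uncertain by 1 doubling.

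The 10914 genes whose mean reached 1 FPKM were fitted with limma 3.58.1 in R 4.3.3, two-sided, with the embryo as a block, a mean-variance trend and Benjamini-Hochberg adjustment at 0.05 (2 residual and 7.5 prior degrees of freedom). Embryos were compared by limma's F test. ± is a standard error of that fit. Pieces are paired by individual, per the series' design; their deviations from group means correlated at -0.07, 0.04 and -0.03. Members and lists were chosen with earlier results of these data known. Members named are a core of 16, the 4 smallest p in each role, the 3 smallest among embryos, the highest and lowest of each role, those at 0 in 2 or more libraries and fixed paralog sets; from each other list, the 2 smallest p plus Asns, Ddit3 and Eif4ebp1. Other names, marker genes included, such as Tars2, Mars, Eif2b4, Eif5b, Dhps and Eif2c1, were added after their values were seen. The Argonaute entries were taken out of the initiation group after the table was read. Protein sequences were not used here, and 1 member that the naming rule selects is not reported here.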

Additional observations from a re-analysis of the deposited data

How the results depend on the processing

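Of 40 named members under 12 alternatives, 0 crossed the adjusted threshold, and 41 of 476 values changed direction, in 15 members. None of the 8 members with an unadjusted p under 0.05 changed direction. They were chosen by that p in the same libraries, so the alternatives are no separate check of them. With no replicate block for the paired pieces, 9 members in place of 8 had an unadjusted p under 0.05. The count of genes past the adjusted threshold was 1 in place of 0, not a member, unblocked when anterior C was omitted. Members at an unadjusted p under 0.05 and higher in the posterior domain numbered 4 with libraries centred on their median, 5 after quantile normalization, 5 without the trend, 13 unblocked when anterior C was omitted, and 3 to 8 leaving out embryos. Those higher in the anterior domain numbered 1 after quantile normalization, 1 and 1 unblocked when anterior A or C was omitted, and 0 to 1 leaving out embryos. Genes past the threshold among embryos numbered 3 without a filter, 3 centred, 3 quantile normalized and 0 to 4 leaving out embryos. Members at an unadjusted p under 0.05 in that test numbered 0 to 2 leaving out embryos. In place of 2 they numbered 3 without a filter, 3 centred and 3 without the trend. Centring gave median differences of 0.025 for initiation factors and -0.011 for synthetases, and quantile normalization -0.084 for synthetases.

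Differences that changed direction were as follows, in log2(FPKM + 1). With libraries centred they were -0.19 for Eef1a1, -0.10 for Eef2, -0.38 for Eef1b2, -0.44 for Eif3a, -0.31 for Eif4a1, -0.35 for Eif6, -0.074 for Eif2b5 and -0.076 for Eef1d. With quantile normalization they were -0.23 for Eef1b2, -0.26 for Eif3a, -0.13 for Eif4a1 and -0.18 for Eif6. Omitting anterior A, unblocked, gave -0.049 for Eef1a1, -0.55 for Eef2, -0.25 for Eef1b2, -0.23 for Eif4a1, -0.12 for Eif2b5, -0.023 for Eef1d, 0.025 for Eif1b, 0.47 for Eif4g3 and -0.12 for Eif2s3x. Omitting anterior C, unblocked, gave 0.18 for Eif4g1, 0.70 for Eif4e3 and 1.22 for Eif5a2. Leaving out 1 embryo gave ranges that crossed 0: -0.011 to 0.70 for Eef1a1, -0.84 to 1.19 for Eef2, -0.29 to 0.60 for Eef1b2, -0.16 to 0.40 for Eif3a, -0.58 to 1.02 for Eif4a1, -0.38 to 0.096 for Eif4g1, -0.16 to 0.42 for Eif6, -0.17 to 0.84 for Eif2b5, -1.48 to 1.14 for Eif4e3, -0.83 to 0.094 for Eif1b, -0.12 to 0.83 for Eif4g2, -1.54 to 0.78 for Eif4g3, -1.75 to 2.14 for Eif5a2 and -0.00095 to 1.18 for Eif2s3x. The cause was not tested. Depth, estimated lowest in anterior A, limits what a value of 0 can show. The share of genes at 0 did not follow the depth estimate in order. It was 22.3%, 13.6% and 27.2% against 6.30%, 5.34% and 20.0%, highest in anterior C.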
